A study of Mus musculus with 12 samples.

Results

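Adipocytes, the lipid-storing cells of fat, secrete hormones and hold a set of enzymes and droplet proteins by which they are recognised, and 6 such genes were followed here through mouse ovaries with and without tumors. The genes were Adipoq, Cfd, Lep, Pck1, Car3 and Cidea, chosen by name, with every probe set whose platform annotation gave 1 of these symbols. This found 5 of 10949 genes and 5 of 16376 probe sets, 1 each for Adipoq, Lep, Pck1, Car3 and Cidea, and Cfd, which encodes the complement protease adipsin, was not analysed here.

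Expression arrays were run on total RNA of ovaries from 12 female mice, all 23 weeks old and all at diestrus. The controls were 6 mice with the genotype Pgrcre/+ and no tumor. The other 6 mice had the genotype Pgrcre/+PgrBLsL/+, with 3 ovary samples labelled stage I and 3 labelled stage II of tumor progression. The Pgrcre allele was thus shared by all groups, controls included, and every sample with PgrBLsL had a tumor stage, so that allele and tumor cannot be told apart against controls. The labels call the samples biological replicates and do not say whether fat around the ovary was removed, so its amount on each array is unknown. Each array gave every probe set 1 log2 value, where a step of 1 is a factor of 2. The lowest value in the table was 2.69, array medians lay between 7.09 and 7.15, and correlations between arrays ran from 0.967 to 0.997. Pgr, the gene for the progesterone receptor, was at 3.74 to 4.60 in controls and at 9.05 to 10.09 on the 6 arrays with PgrBLsL, so the genotype labels and the values went together.

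Adiponectin, the product of Adipoq, is a hormone made almost solely by adipocytes, which raises insulin sensitivity through the receptors encoded by Adipor1 and Adipor2. Leptin, the product of Lep, reports fat stores to the brain and acts on reproduction through Lepr. In an ovary such transcripts can come from fat in or beside the organ, and in a whole-tissue sample fewer cells of a type and less RNA per cell cannot be told apart.

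The sequences before the start sites of both hormone genes are shown because the pair separated in these data: Adipoq varied widely and Lep was nearly flat. They are the 250 bases before each gene's start, on the plus strand of GRCm38.p6 from RefSeq, at chr16:23146286-23146535 for Adipoq and chr6:29059971-29060220 for Lep. Capitals mark CCAAT on either strand in Adipoq and TTGCNNAA, a C/EBP-type sequence, in Lep.
Adipoq: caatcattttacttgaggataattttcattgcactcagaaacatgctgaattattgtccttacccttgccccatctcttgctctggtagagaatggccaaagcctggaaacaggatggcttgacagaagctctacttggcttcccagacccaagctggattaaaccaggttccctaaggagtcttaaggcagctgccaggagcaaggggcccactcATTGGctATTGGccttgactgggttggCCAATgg
Lep: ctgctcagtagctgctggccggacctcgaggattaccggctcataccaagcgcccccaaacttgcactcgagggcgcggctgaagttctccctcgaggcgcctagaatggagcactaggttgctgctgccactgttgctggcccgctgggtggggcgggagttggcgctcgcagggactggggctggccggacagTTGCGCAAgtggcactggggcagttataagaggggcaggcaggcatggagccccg
CCAAT was found 3 times in the Adipoq window and 0 times in that of Lep, and 33.8% of 32851 promoter windows of this length hold it. TTGCNNAA was found as TTGCGCAA at bases -55 to -48 in Lep, which reads the same on both strands, and 9.56% of windows hold a match. Neither window held TATAAA (12.4% of windows) or AGGTCA, the half-site of many nuclear receptors (14.0%). E-boxes (CANNTG), which 66.2% of windows hold, were found once in Adipoq and at 2 places in Lep, both overlapping the C/EBP-type match. Of the 6 genes 4 were searched, Cfd and Pck1 besides these, each on both strands. A match of letters is a description and no evidence that a factor binds there.

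Adipoq was far lower in stage II ovaries than in either other group, and its level in controls spread more than that of nearly every other probe set. The controls, replicates 1 to 6, were at 6.29, 8.52, 8.49, 9.01, 9.88 and 9.65. Stage I arrays were at 7.89, 8.16 and 9.31, and stage II arrays were at 4.85, 6.17 and 4.88. All 3 stage II arrays lay below all controls and all stage I arrays, but stage II replicate 2 was only 0.12 below control replicate 1, while the next control stood at 8.49. Stage I lay within the range of the controls on every array.

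Adipoq averaged 8.64 ± 1.29 (SD, n = 6) over the controls. Stage I ovaries averaged 8.46 ± 0.75 (SD, n = 3), and those of stage II 5.30 ± 0.75 (SD, n = 3). Stage II was 10.1-fold below control (log2 -3.34 ± 0.66 SE, limma, adjusted p = 0.00399), the lowest log2 difference of all 14674 probe sets tested. Against stage I it was 8.91-fold lower (log2 -3.16 ± 0.76 SE, limma, adjusted p = 0.0207). Stage I against control had a log2 difference of -0.18 with a 95% interval from -1.61 to 1.24, which leaves room for a change of more than 2-fold either way. The order of the levels was therefore control, stage I and stage II, of which the first pair did not differ beyond their spread. In stage II markers of granulosa cells (5 of 5), theca (3 of 4) and oocytes (7 of 7) were also lower against control (limma). Other cells of the ovary did not share this. Of mesothelium and surface epithelium markers 1 of 4 rose, of endothelial markers 2 of 8, and 0 of either passed as lower. Of all probe sets 10.7% were lower there and 9.57% higher. The part of any of these cells in the fall of Adipoq was not tested. The Adipoq call against control was kept with each array left out in turn, with log2 differences from -3.81 to -3.09 and adjusted p up to 0.0273. The difference between the stages did not pass without stage I replicate 2 (adjusted p = 0.0532), stage I replicate 3 (0.0836), stage II replicate 1 (0.0604) or stage II replicate 3 (0.0833).

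**Figure D1:**
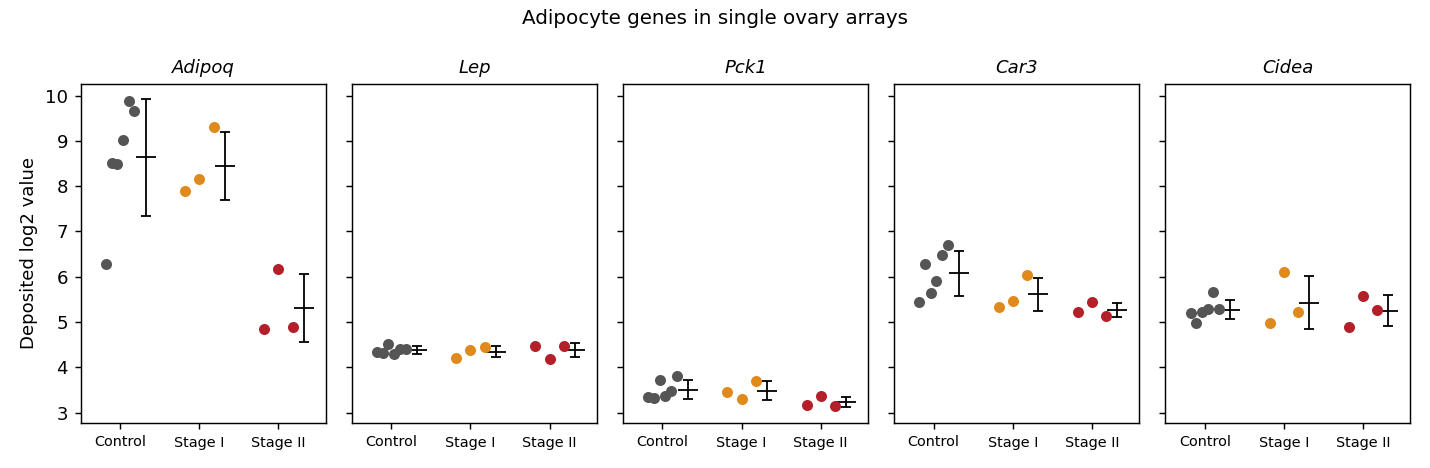
Deposited log2 values of the 5 genes (vertical axis, shared by all panels) on each of 12 arrays, by group, with group mean and SD as bars beside the points. Adipoq in stage II lies between 4.85 and 6.17, below controls at 6.29 to 9.88, while Lep stays between 4.19 and 4.52 on every array.

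Lep stayed nearly level. Control ovaries gave 4.35, 4.31, 4.52, 4.30, 4.40 and 4.40. Stage I ovaries gave 4.21, 4.39 and 4.44, and those of stage II gave 4.47, 4.19 and 4.47. The 3 groups overlapped throughout, and no array stood apart. Stage II minus control was 0.00 on the log2 scale with a 95% interval from -0.18 to 0.17 (limma, adjusted p = 0.99). No measure of the array background was used here, so whether Lep was above it is unknown, and a change that stayed below it would not be seen.

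Pck1 encodes the cytosolic phosphoenolpyruvate carboxykinase, which serves to make the glycerol part of stored fat in adipocytes and glucose in liver. Its values lay near the lowest in the table, with controls at 3.35, 3.31, 3.73, 3.37, 3.48 and 3.80. Stage I ovaries gave 3.45, 3.30 and 3.70, and those of stage II gave 3.17, 3.37 and 3.16. In stage II 2 of the 3 arrays lay below every control, and replicate 2 lay among them. The log2 difference of -0.27 ± 0.12 SE between stage II and control did not pass (limma, adjusted p = 0.143). As with Lep, whether Pck1 was above the array background is unknown, and a change below it would not be seen.

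Car3 encodes carbonic anhydrase 3, an abundant cytosolic enzyme of adipocytes and also of skeletal muscle. Control ovaries gave 5.43, 6.29, 5.64, 5.90, 6.48 and 6.70. Stage I ovaries gave 5.32, 5.47 and 6.03, and those of stage II gave 5.22, 5.44 and 5.13. Here 2 stage II arrays lay below every control, and replicate 2 lay just above control replicate 1, the lowest control. Stage II was 1.75-fold below control (log2 -0.81 ± 0.26 SE, limma, adjusted p = 0.042). The call was lost when any 1 of 7 arrays was left out (each stage II array, stage I replicate 2, or control replicates 2, 5 or 6), with adjusted p up to 0.165 and log2 differences from -0.94 to -0.69 over all arrays left out in turn. Stage I minus control was -0.47 (95% interval -1.02 to 0.09, limma, adjusted p = 0.895), and stage II minus stage I was -0.34 (adjusted p = 0.513). Of 9 skeletal muscle markers 2 rose in stage II and 0 fell (22.2%, where 20.2% of all probe sets passed and 9.57% were higher). Their summed linear level was 241 to 271 in controls and 289 to 331 in stage II. These markers were dim, with a mean log2 value of 4.47 to 4.61 in controls. Ckm, the muscle creatine kinase, lay between 5.38 and 5.81 in both groups. The part of muscle in the values of Car3 was not tested.

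Cidea encodes a lipid droplet protein best known from brown fat. Control ovaries gave 5.21, 4.98, 5.22, 5.29, 5.65 and 5.29. Stage I ovaries gave 4.97, 6.10 and 5.22, and those of stage II gave 4.90, 5.58 and 5.26. The groups overlapped, and stage I replicate 2 was the highest array. Stage II minus control was -0.03 (95% interval -0.51 to 0.45, limma, adjusted p = 0.947). Ucp1, the uncoupling protein that defines brown adipocytes, was between 3.95 and 4.56 on all 12 arrays. Whether this was above the array background is likewise unknown.

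Against control, 2 of the 5 probe sets passed in stage II, both lower, and 0 of 5 in stage I. Over all probe sets 20.2% passed in stage II, 10.7% lower and 9.57% higher, and 0.191% passed in stage I. Stage II against stage I gave 1 of 5, lower, where 11.4% of all probe sets passed, 5.12% lower and 6.25% higher. Adipoq was the 1 of 5 whose stage II arrays all lay below the controls, which 11.4% of all probe sets did, and all below stage I, which 16.6% did. None of the 5 separated stage I from control, where 1.42% of probe sets lay wholly below and 2.13% wholly above. Both comparisons with controls share the same 6 arrays. The 14674 probe sets had a median log2 difference of -0.01 in stage II, and the 5 genes had -0.27.

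**Figure D2:**
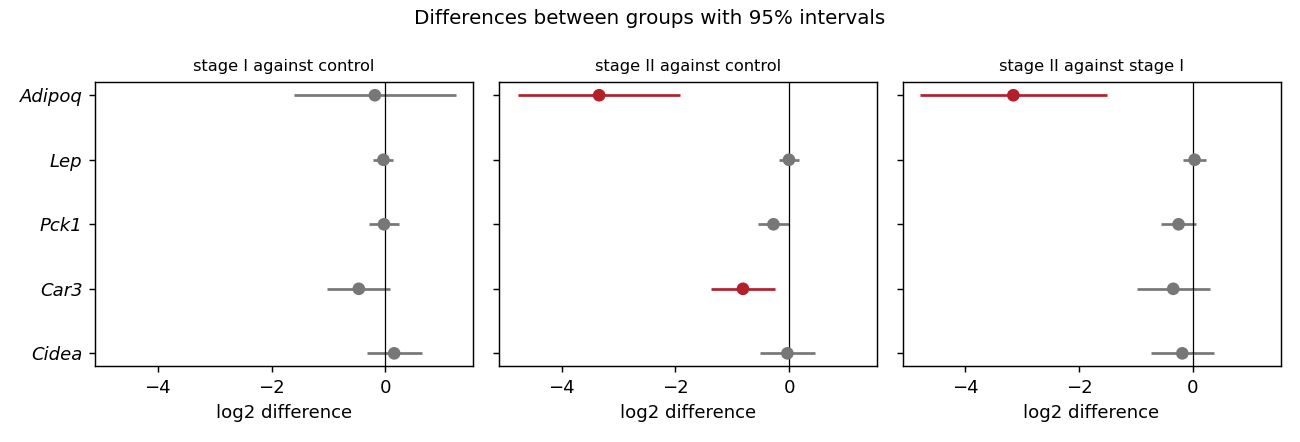
Log2 differences (horizontal axis) of the 5 genes in 3 comparisons, with 95% intervals from limma, in red where the adjusted p is under 0.05. Adipoq falls in both comparisons of stage II, Car3 in stage II against control alone, and the intervals of Lep stay within -0.21 and 0.23.

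Among the controls alone Adipoq spanned 3.59 log2 units, or 12.1-fold. Much of this span came from control replicate 1, at 6.29, while the other controls ran from 8.49 to 9.88. Its control SD of 1.29 stood against a median of 0.12 over all probe sets, and 13 probe sets, Adipoq included, had an SD that large (0.0886%). Car3 had 0.50, which 1.74% of probe sets reached, Cidea 0.22 (13.1%), Pck1 0.21 (15.0%) and Lep 0.08 (78.2%). In stage II the SD of Adipoq was still 0.75, and that of Car3 was 0.16.

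**Figure D3:**
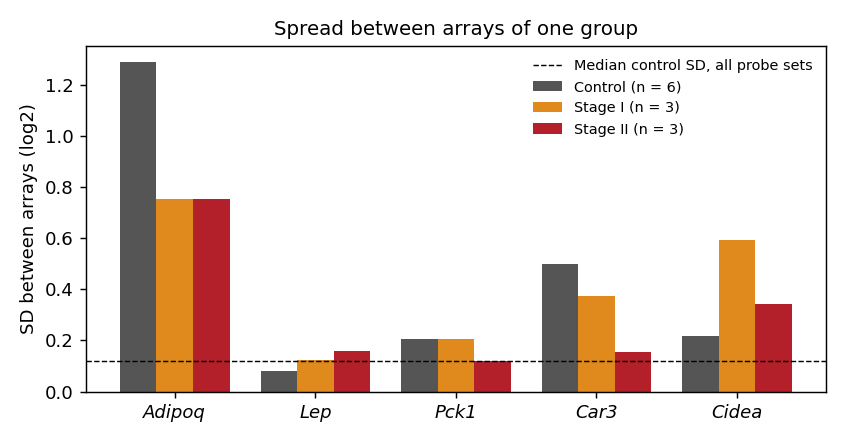
SD of the log2 values (vertical axis) between arrays of each group for the 5 genes, with the median control SD of all probe sets (0.12) as a dashed line. Adipoq spreads most in each group, at 1.29 in controls and 0.75 in both stages, and Lep in controls lies under the line at 0.08.

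Over the 6 controls Car3 and Adipoq had a Pearson r = 0.82 (exact permutation p = 0.0278, 0.111 adjusted over 4 relations) and Spearman rho = 0.89 (exact permutation p = 0.0333, adjusted 0.133). Without control replicates 1 and 5, the farthest from the median of Adipoq, r was 0.72. For Cidea r was 0.50 (exact permutation p = 0.267, adjusted 0.533) and rho 0.77 (0.103, adjusted 0.206), with r = 0.64 without these arrays. For Pck1 r was 0.43 (exact permutation p = 0.418, adjusted 0.557) and rho 0.43 (0.419, adjusted 0.559), with r = 0.46 without them. For Lep r was 0.17 (exact permutation p = 0.758, adjusted 0.758) and rho 0.03 (1, adjusted 1), with r = -0.12 without them. None of the 4 relations passed after adjustment.

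Of 21 other adipocyte genes measured, 9 (42.9%) had their lowest control value in replicate 1, as did 22.3% of all probe sets. The other 12 did not, among them Cd36, Pnpla2, Lipe and Pparg. This was not particular to fat: 4 of 4 mesothelium and surface epithelium, 4 of 5 granulosa cell and 3 of 7 oocyte genes were lowest there. Of 8 endothelial genes 0 were. Of 10 lipid droplet and lipolysis genes 0 were lowest there, and their summed linear level of 5972 in replicate 1 was the highest of the controls. Among the 9, Fabp4, the fatty acid binding protein of adipocytes, was 7.64 there and 8.96 to 10.28 in the other controls. Fasn, fatty acid synthase, was 9.80 there against 10.23 to 10.53, and Rbp4, the retinol binding protein, 6.48 against 6.96 to 7.70. Among the controls, replicate 5 held the highest value in Adipoq and in 7 of the 21 genes (33.3%, against 10.9% of all probe sets), Fabp4, Fasn and Rbp4 among them. Ovgp1, an oviduct marker, was highest of all 12 arrays on control replicate 5, at 12.70, and stood at 11.77 on stage I replicate 2 and 11.58 on stage II replicate 2. Without these 3 arrays Adipoq in stage II was at log2 -3.53 against control (limma, adjusted p = 0.0143), and Car3 at -0.82 (adjusted p = 0.118). Without control replicates 1 and 4 together, a choice made after seeing the data, the values were -3.83 (limma, adjusted p = 0.000501) and -1.01 (0.0134).

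Of the other adipocyte genes 21 of 32 listed were measured, and they did not fall as a group in stage II. Of these, 1 fell and 3 rose against control (limma), 19.0% in all against 20.2% of all probe sets, and the median log2 difference was 0.04 against -0.01. Lpl, the lipoprotein lipase that frees fatty acids for uptake, fell 1.60-fold (log2 -0.68 ± 0.12 SE, adjusted p = 0.00234). Fabp4 rose 5.54-fold (log2 2.47 ± 0.45 SE, adjusted p = 0.00243). Cd36, a fatty acid transporter, rose 4.84-fold (2.28 ± 0.24 SE, adjusted p = 3.84e-05), and Pnpla2, the triglyceride lipase ATGL, rose 1.59-fold (0.67 ± 0.11 SE, adjusted p = 0.00102). In each of these 4 genes all stage II arrays lay on 1 side of all controls, as in 11.4% of probe sets below and 9.87% above. In stage II, Fabp4 was at 12.16, 11.82 and 11.46, above its highest control on every array, while Adipoq on the same arrays was below its lowest. A second probe set of Fabp4 also rose (log2 1.52, adjusted p = 0.00292), and the dimmest, at a mean of 4.88, had 0.25 (adjusted p = 0.157). The second probe set of Lpl fell likewise (-0.65, adjusted p = 0.0104), and that of Pnpla2, at a mean of 4.34, had 0.24 (adjusted p = 0.0638).

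The other 17 of these 21 genes did not pass in stage II. Pparg, the master regulator of adipocyte formation, had a log2 difference of 0.27 (limma, adjusted p = 0.137) and Cebpa, its partner, 0.04 (0.905). Lipe, hormone-sensitive lipase, had -0.28 (adjusted p = 0.351), Fasn -0.21 (0.248), Rbp4 -0.26 (0.53) and Nnat, neuronatin, -0.81 (0.0545). In stage I, 0 of the 21 passed, with Fabp4 at 0.93 (adjusted p = 0.82) and Cd36 at 0.67 (0.626). Against stage I, 3 rose and 1 fell in stage II (19.0%, where 11.4% of all probe sets passed). Among them were Cd36 (1.61 ± 0.28 SE, limma, adjusted p = 0.00412) and Lpl (-0.52 ± 0.14 SE, adjusted p = 0.0345). The Cd36 call was lost with only the 2 groups compared (adjusted p = 0.0522) and without the 3 arrays highest in Ovgp1 (0.0533). Leaving out any single stage I array, or the third array of stage II, ended the Lpl call between the stages (adjusted p reached 0.146).

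**Figure D4:**
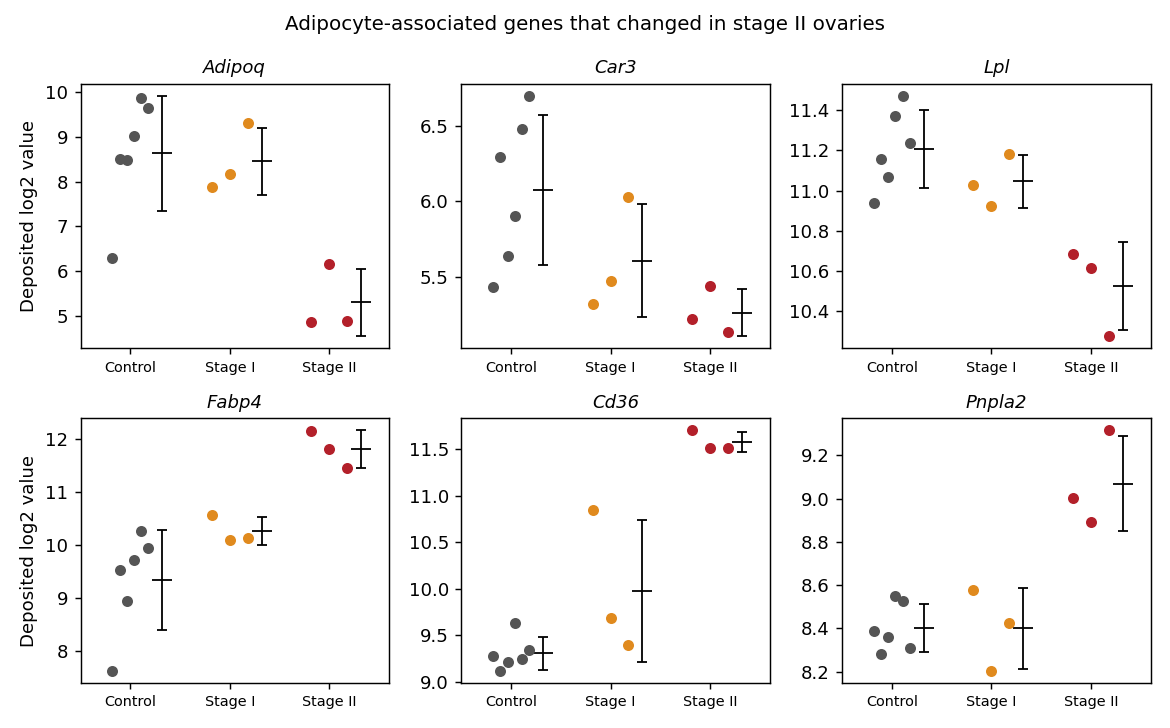
Deposited log2 values (vertical axis, own scale in each panel) of 6 adipocyte-associated genes on each array, by group, with mean and SD. In stage II Adipoq, Car3 and Lpl are lower than in controls and Fabp4, Cd36 and Pnpla2 are higher.

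**Figure D5:**
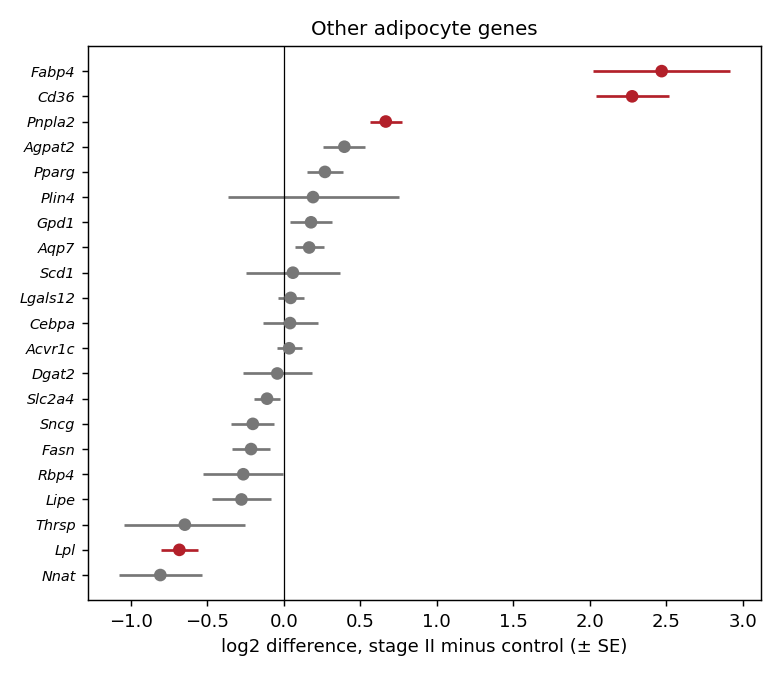
Log2 difference between stage II and control with its SE (horizontal axis) for the 21 measured genes of the other adipocyte list, in red where the adjusted p is under 0.05. Fabp4 at 2.47, Cd36 at 2.28 and Pnpla2 at 0.67 rise, Lpl at -0.68 falls, and the other 17 do not pass.

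Some of these genes are also active outside fat: Fabp4 and Cd36 in endothelium and macrophages. Of 8 endothelial markers measured 2 rose in stage II and 0 fell, with a summed linear level of 1599 to 2182 in controls and 2014 to 2354 in stage II. Of 6 macrophage markers 5 rose (83.3%, beside the same shares), from a sum of 5681 to 6925 in controls to 7882 to 9345. The part of endothelium and macrophages in the values of Fabp4 and Cd36 was not tested.

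Lipid droplet and lipolysis genes, 10 of 15 measured, rose or did not pass in stage II, with 4 higher (40.0%, where 9.57% of all probe sets were), 0 lower and a median of 0.29. Mgll, monoglyceride lipase, rose 1.78-fold (log2 0.83 ± 0.09 SE, limma, adjusted p = 4.96e-05) at its brighter probe set, while the dimmer had -0.12 (adjusted p = 0.477). Plin3, a droplet coat protein, rose by 0.41 (adjusted p = 0.00822) and Bscl2, the seipin of droplet assembly, by 0.37 (0.0133). The remaining gene that rose was Pnpla2, given above. It, Plin4, Lipe and Aqp7 are also among the other adipocyte genes measured, so the 2 lists are not independent. The Plin3 and Bscl2 calls were lost without stage II replicate 3 (adjusted p = 0.0556 and 0.0706).

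The receptors and signalling genes of the 2 hormones, 11 of 14 measured, held 3 that rose and 1 that fell in stage II, 36.4% beside 20.2% of all probe sets. Adipor1, an adiponectin receptor, rose 1.36-fold (log2 0.45 ± 0.10 SE, limma, adjusted p = 0.00629). Cdh13, T-cadherin, which binds adiponectin, rose 1.45-fold at its brighter probe set (0.54 ± 0.13 SE, adjusted p = 0.0112), and the dimmer had 0.06 (adjusted p = 0.589). Jak2, the kinase bound to the leptin receptor, rose by 0.26 (adjusted p = 0.0227), and Irs1, an insulin receptor substrate, fell by 0.42 (adjusted p = 0.047). Lepr itself had -0.53 at its brightest of 3 probe sets and did not pass (adjusted p = 0.0526). The others had -0.17 (adjusted p = 0.110) and 0.23 (0.111), so their directions differed. The Cdh13 call was lost without stage II replicate 3 (adjusted p = 0.0554), that of Jak2 without stage II replicates 2 or 3 (up to 0.0837), and that of Irs1 when any 1 of 8 arrays was left out (any control but replicate 4, stage I replicate 3, stage II replicates 1 or 3, up to 0.233).

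Among brown and beige fat genes, 9 of 15 measured, 1 rose and 2 fell in stage II (33.3% beside 20.2%). Fabp3, a fatty acid binding protein of heart and brown fat, rose 5.23-fold (log2 2.39 ± 0.25 SE, limma, adjusted p = 3.24e-05) and was already 3.14-fold higher in stage I (adjusted p = 0.0135), a call lost in 6 of 24 alternatives, among them leaving out stage I replicates 1 or 2 (0.0535 and 0.0542), control replicates 1 and 4 together (0.0562) or the 3 arrays highest in Ovgp1 (0.164). Dio2, the deiodinase that activates thyroid hormone, fell by 0.88 (adjusted p = 0.00296) at the brightest of 3 probe sets, and the others had -0.15 and -0.22 and did not pass. Slc27a2, a fatty acid transporter, fell by 0.36 (adjusted p = 0.0204), and not without stage II replicate 3 (0.126).

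Around Pck1, 2 of 7 measured genes of gluconeogenesis and glyceroneogenesis fell and 0 rose (28.6% beside 20.2% of all probe sets). They were Foxo1 and Creb1, both transcription factors that act on Pck1 in liver. Foxo1 fell by 0.74 (limma, adjusted p = 0.00813), with 3 of 3 probe sets passing and the call lost without stage II replicate 3 (0.0559). Creb1 fell by 0.28 at 1 of 4 probe sets (adjusted p = 0.0299), a call lost when any 1 of 5 arrays was left out (stage II replicates 1 or 3, or control replicates 2, 3 or 6, up to 0.171). Among 11 other carbonic anhydrase genes 2 rose and 0 fell (18.2% beside 20.2%). Car11, which encodes a related protein without the enzyme activity, rose 7.46-fold (log2 2.90 ± 0.34 SE, limma, adjusted p = 9.25e-05), and Car13 rose 1.60-fold (0.68 ± 0.11 SE, adjusted p = 0.0013). Car3 was thus the only called carbonic anhydrase that was lower in stage II, in the fit with all arrays. Of 6 genes of the alternative complement pathway, in which adipsin acts, 1 fell (16.7% beside 20.2%), the regulator Cd55 (log2 -0.65, limma, adjusted p = 0.0413). Its call was lost when any 1 of 8 arrays was left out (control replicates 2, 3, 5 or 6, stage I replicates 2 or 3, stage II replicates 1 or 3, up to 0.214).

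Among 10 adipocyte progenitor genes of 14 listed, 1 rose and 1 fell in stage II, a share of 20.0% beside 20.2% of all probe sets. Cebpd, an early factor of adipocyte formation, rose 3.07-fold (log2 1.62 ± 0.22 SE, limma, adjusted p = 0.000301). Pdgfra, a receptor of progenitors and of ovarian stroma, fell by 0.50 (adjusted p = 0.00823) at its brighter probe set, and the dimmer had -0.29 (adjusted p = 0.217).

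The genes whose arrays tracked Adipoq most closely inside the groups were sought among 10400 genes, by Pearson r over 12 arrays after the group means were removed, as a description. Rab23, a small GTPase, came first (r = 0.95), followed by Brap (0.92), Cyp2e1 (0.90), Ncoa4 (0.89), Mtfr1l (0.88), Pdcd11 (0.87), Dok1 (0.86) and Igfbp6 (0.86). Most of them varied far less than Adipoq, with a control SD of 0.16 in Rab23 and 0.10 in Brap against 1.29. Cyp2e1, a cytochrome P450 of liver and fat, had a control SD of 0.57, and r was 0.92 over the 6 controls. It was at 6.62, 7.65, 7.66, 7.49, 7.90 and 8.34 in controls, 7.27, 7.47 and 7.78 in stage I and 5.87, 6.13 and 6.02 in stage II. As with Adipoq, its stage II arrays all lay below control replicate 1, the lowest control. It fell 3.04-fold against control (log2 -1.60 ± 0.27 SE, limma, adjusted p = 0.00166). Igfbp6, a binding protein of insulin-like growth factors, also fell (-0.46, limma, adjusted p = 0.0372), a call lost when any 1 of 6 arrays was left out (control replicates 2, 3, 5 or 6, stage II replicates 1 or 3, up to 0.192). The other 6 did not pass, where 20.2% of all probe sets passed. Cyp2e1 and Pck1 are also liver genes. Of 5 liver markers measured 2 rose in stage II and 0 fell (40.0%, where 20.2% of all probe sets passed and 9.57% were higher). The summed linear level of these markers was 423 to 657 in controls and 1939 to 6897 in stage II. Their part in the values of both genes was not tested.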

How the data were processed

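The values used are log2 expression values, 1 per probe set and array, as the authors deposited them. How they were summarised and normalized is not given in the sources used here, and the log2 scale was taken from their range. Per the labels' protocols, total RNA was isolated with Trizol; they give biotin as the label and also name Cy3 and Cy5 in the labelling mix, and which of these the values rest on is unknown. The platform annotation gave 1 symbol to 14674 of 16376 probe sets, several to 427 and none to 1275. Of the first kind, 14632 matched the RefSeq gene table of GRCm38.p6 by Entrez identifier, with 0 symbols changed. Other probe sets of this array type were not used here.

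A mean per group was fitted to all 12 arrays for each probe set with 1 symbol (limma 3.58.1, lmFit and eBayes, R 4.3.3), with 9 residual and 3.31 prior degrees of freedom. P-values were adjusted by Benjamini-Hochberg over all 14674, with a threshold of 0.05. Listed genes are represented by their probe set with the highest mean over 12 arrays, and a summed linear level adds 2 to the power of each value. The scripts were tested on simulated data. No detection calls or scanner intensities were used, and the number of arrays limits the precision.

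The genes, gene lists and tests were chosen with earlier results of these data known. Named were the 5 genes, up to 6 called members of a list or up to 3 others by size, and the 8 genes most like Adipoq; not all are given. Ckm, and the list genes given with values although not called or set against control replicate 1, were picked with their values in view. Whether the replicate numbers in the labels pair samples is unknown. Correlations of deviations between arrays with the same number ran from -0.15 to 0.20. Arrays with different numbers were not set beside them, so these values cannot decide it. The alternatives were quantile normalization, centred medians, leaving out the dimmest 25 percent of probe sets, 1 probe set or the mean per gene, every probe set, only the 2 groups compared, array weights, a trended robust prior, the replicate block and each array left out. Leaving out control replicates 1 and 4, or the 3 arrays highest in Ovgp1, was added after seeing the data.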

Additional observations from a re-analysis of the deposited data

Results flagged for a closer look

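The tested difference between stage II and stage I passed (limma, adjusted p under 0.05) for Adipoq, at log2 -3.16. It also passed for the named genes Cd36 (1.61), Pnpla2 (0.67), Mgll (0.90), Plin3 (0.39), Car11 (1.82), Car13 (0.74) and Pgr (0.80), which were higher in stage II. Lpl (-0.52), Dio2 (-0.73), Foxo1 (-0.71), Creb1 (-0.37), Pdgfra (-0.51) and Cyp2e1 (-1.50) were lower. With single arrays left out, adjusted p reached 0.0836 for Adipoq, 0.146 for Lpl, 0.114 for Dio2, 0.14 for Foxo1, 0.0563 for Car11 and 0.0504 for Cyp2e1. Plin3, Creb1, Pdgfra and Pgr were not checked in this way between the stages. Dimmer probe sets did not pass for Creb1 (-0.08, 0.09 and -0.07), Pdgfra (-0.39), Dio2 (-0.01 and -0.24), Lpl (-0.39), Mgll (-0.15) and Pnpla2 (0.12). Those of Foxo1 and Car13 passed. No array of the controls stood out by Dixon's test in any of these genes or the 5 adipocyte genes, and control replicate 1 in Adipoq came close, with a gap of 0.613 of the range, just under the critical value.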

How the results depend on the processing

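Adipoq in stage II against control kept its direction and passed under all 24 alternatives, with log2 differences from -3.83 to -2.46. The count of 2 called probe sets there became 1 (Adipoq) with only the 2 groups compared, with the replicate block and without the 3 arrays highest in Ovgp1, and was 1 to 2 with each array left out. Between the stages the count of 1 was 0 to 1. Control replicates 4, 5 and 6 share their number with no stage I or stage II array. The replicate block thus removed them from both comparisons with controls. With this block the Car3 value was -0.52 (limma, adjusted p = 0.178). Lpl, Adipor1, Pdgfra, Jak2, Creb1, Cd55 and Igfbp6 in stage II, Fabp3 in stage I and Lpl and Car11 between the stages did not pass either. With only the 2 groups compared, Cd55 and Igfbp6 in stage II, Fabp3 in stage I, and Cd36, Lpl, Pnpla2, Car11, Car13 and Foxo1 between the stages did not pass. Without the arrays highest in Ovgp1, Cdh13 and Jak2 in stage II, Fabp3 in stage I, and Cd36, Lpl, Car11 and Cyp2e1 between the stages did not, and with probe sets averaged per gene, Creb1 in stage II and Lpl and Dio2 between the stages did not. The filter on dim probe sets removed Lep and Pck1. Of 37 called gene values 13 passed under every alternative. Counts over all probe sets in stage II against control (2969) were 1449 without stage II replicate 3 and 1379 with the block. Between the stages (1669, 917 higher and 752 lower) quantile normalization gave 888 higher and 1130 lower, and the count was 759, 748 and 739 without stage I replicate 2, stage I replicate 3 and stage II replicate 3, 553 with 2 groups, 775 with the block, 2771 with array weights and 666 without the arrays highest in Ovgp1. In stage I (28) it was 6 with the block, 16 without control replicates 1 and 4 and 15 without those highest in Ovgp1.

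Only values that passed no test changed direction. In stage I with each array left out, Adipoq ran from -0.65 to 0.10, Lep from -0.082 to 0.036, Pck1 from -0.14 to 0.069 and Cidea from -0.18 to 0.38. In stage II against control Lep ran from -0.050 to 0.090, Cidea from -0.20 to 0.14, Cebpa from -0.037 to 0.15 and Ucp1 from -0.21 to 0.016. Between the stages Lep ran from -0.039 to 0.12 and Cidea from -0.41 to 0.15, and r of Lep with Adipoq in controls from -0.023 to 0.40. With the replicate block, and so without control replicates 4, 5 and 6, Adipoq (0.69) and Pck1 (0.020) turned in stage I. Cidea (0.11), Rbp4 (0.11) and Ucp1 (0.027) turned in stage II. Without the arrays highest in Ovgp1, Adipoq (0.21), Pck1 (0.063) and Cidea (-0.10) turned in stage I, and Lep (0.10) and Ucp1 (0.038) in stage II. Ucp1 was at 0.00896 without control replicates 1 and 4. Beyond the arrays that each setting left out, the cause was not tested.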
